A study of Homo sapiens with 6 samples.

Results

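The 10 genes studied here bring cystine into the cell, build and break down glutathione, and set how easily membrane lipids are oxidised, and they were followed in SV-HUC-1 cells exposed to a halogenated benzoquinone. They are SLC7A11, CHAC1, GCLC, GCLM, GSS, GSR, GPX4, ACSL4, AIFM2 and LPCAT3. The 10 were listed by name and found by symbol among the 60624 Ensembl gene identifiers of the deposited table, and all 10 passed the filter on low values, a mean of at least 1 TPM over the 6 libraries. TPM is expression scaled for gene length and for the library total, so levels of different genes can be set side by side.

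SV-HUC-1 is a line of human urothelial cells, established by immortalisation with SV40, so every library comes from 1 line. The control group was 3 libraries from cells given a blank solution, and the exposed group was 3 libraries from cells given 2,6-dichloro-1,4-benzoquinone (DCBQ), each for 3 days. DCBQ is a byproduct of drinking water disinfection, and the concentration is not given in the sources used here. Since the labels do not name separate cultures within a group, the p-values reflect spread among libraries that may be purely technical.

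Cells import cystine, the oxidised dimer of cysteine, through a transporter made of SLC7A11 and a heavy chain, SLC3A2. Cysteine is then joined to glutamate by glutamate-cysteine ligase (a catalytic subunit, GCLC, and a modifier subunit, GCLM) and to glycine by glutathione synthetase (GSS), which gives glutathione. Glutathione reductase (GSR) returns the oxidised form to use with NADPH, and CHAC1 cleaves glutathione in the cytosol. Ferroptosis is an iron-dependent death by lipid peroxidation: GPX4 uses glutathione to reduce lipid peroxides, AIFM2 (also called FSP1) keeps coenzyme Q reduced in membranes, and ACSL4 and LPCAT3 place polyunsaturated fatty acids into the phospholipids that are oxidised. Halobenzoquinones are electrophiles that can react with the thiol of glutathione.

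Among the promoter windows of these genes, 3 hold a short match to the site of a factor known to act on the family, and they are shown because those factors were measured too. The windows are RefSeq's, on GRCh38.p14, from 250 bases before to 50 after a gene's start, and 7 of the 10 genes had at least 1. SLC7A11, GSS and GSR were not in the table. The motifs searched on both strands were TGATGNAAN, the element bound by ATF4 with a C/EBP partner, and TGACNNNGC, the core of the antioxidant response element bound by NRF2 with a small MAF protein. The sequences run 5′ to 3′ on the gene's own strand, the capitals mark the match, and each match reads as the motif on the opposite strand. The CHAC1 site is at chr15:40953251-40953280 (plus strand), the GCLM site at chr1:93909445-93909474 (minus strand) and the AIFM2 site at chr10:70132828-70132857 (minus strand).
CHAC1, ATF4 element: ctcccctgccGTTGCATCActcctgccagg
GCLM, antioxidant response element: tacgatttctGCTTAGTCAttgtcttccag
AIFM2, antioxidant response element: cagcacgagtGCTGAGTCAcgccccgcccg
The first motif occurs in 3.61% and the second in 13.3% of all 35116 windows of 300 bases, and a match is a string of letters and not a measured binding site. In GENCODE 29, whose longer transcripts start upstream of these RefSeq starts, the CHAC1 and AIFM2 stretches lie within annotated 5′ UTR exons and the GCLM stretch reaches into one.

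After 3 days of DCBQ, SLC7A11 and CHAC1 were almost lost, GSS and AIFM2 were lower by a smaller step, and GSR and LPCAT3 were higher. GCLC, GPX4 and ACSL4 were slightly lower in a way that depended on scaling. GCLM did not pass the test on TPM as deposited, and its sign depended on scaling. On TPM as deposited, 7 of the 10 passed as lower and 2 as higher, at a limma adjusted p under 0.05. Among all 16734 tested genes, 52.9% were called, 39.5% as lower and 13.4% as higher. Control and DCBQ ranges were separate for 9 of the 10, against 61.2% of all tested genes. Given how many genes moved in this experiment, the number of members called says little, and the sizes are what set SLC7A11 and CHAC1 apart.

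Scaling bears on the small differences. The median tested gene differed by -0.21 on the log2(TPM + 1) scale, and 74.6% of all calls were lower. Mitochondrially encoded genes took 20.9% to 22.2% of TPM in the control libraries and 27.96% to 28.77% in the DCBQ libraries, and their part in this shift can be seen by leaving them out, which moved the median to -0.10, with 29.5% of tested genes lower and 18.2% higher, and 5 members lower and 2 higher. Median-of-ratios scaling, which centres the libraries on each other, moved it to about 0, left 49.1% of calls lower, and gave 4 of the 10 members as lower and 2 as higher. Quantile normalization gave 5 lower and 3 higher. Of all tested genes, 23.1% were lower and 23.9% higher with median-of-ratios scaling, and 23.7% lower and 22.8% higher with quantile normalization.

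**Figure D1:**
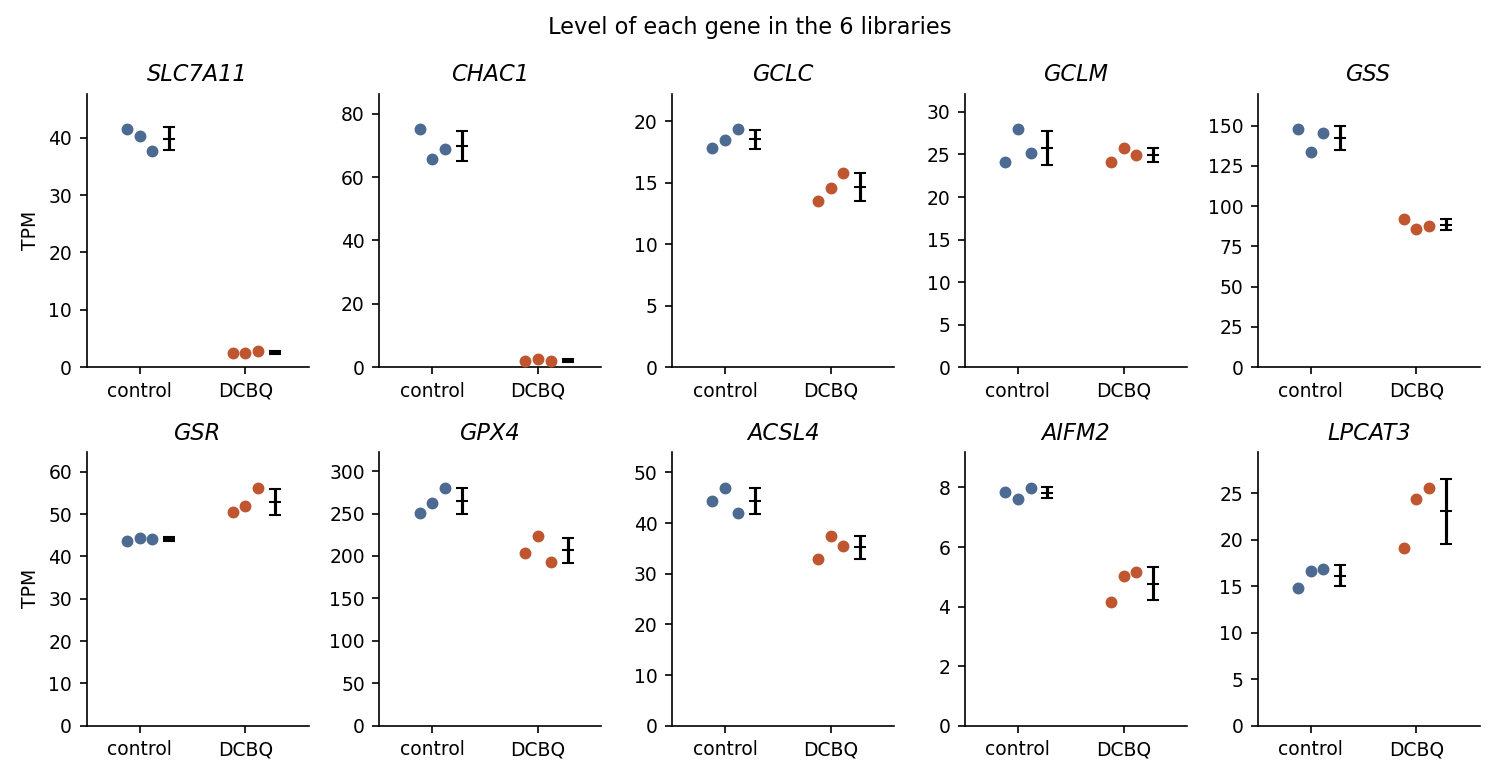
TPM of each of the 10 genes (vertical axes, from 0) in the 3 control and 3 DCBQ libraries. Points are single libraries, and the bars beside them are the mean and SD of 3. SLC7A11 and CHAC1 drop to a few TPM in every DCBQ library, while GCLM is the 1 gene whose groups overlap.

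SLC7A11, the exchanger that imports cystine, had 41.5, 40.4 and 37.7 TPM in the control libraries and 2.46, 2.44 and 2.80 TPM in the DCBQ libraries. Every control library was far above every DCBQ library, and the spread within a group was small. The level fell 15.5-fold, from 39.9 ± 1.9 to 2.57 ± 0.20 TPM (SD, n = 3), a log2 difference of -3.52 (with SE 0.090, limma adjusted p = 1.1e-07). It was the 8th largest decrease of the 16734 tested genes, and its level moved from the 72.6th to the 21.1st percentile of them. The gene lies on chromosome 4, 138164097 to 138242349, minus strand (GENCODE 29, GRCh38). The antisense gene SLC7A11-AS1 overlaps it for 14081 bases, and how strand was used in the counting is not given in the sources used here. SLC7A11-AS1 had 2.201 to 2.347 TPM in control and 0 to 0.15 TPM in DCBQ, and was called lower too.

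The heavy chain of the same transporter moved less. SLC3A2, which also pairs with other amino acid exchangers, fell 2.49-fold, from 891.7 ± 24.5 to 357.8 ± 9.8 TPM (log2 difference -1.32, limma adjusted p = 2.3e-07). The ratio of SLC7A11 to SLC3A2 within a library is unaffected by any single factor applied to that library, such as median-of-ratios scaling, but quantile normalization can move it. It was 0.0458, 0.0468 and 0.0416 in control and 0.00668, 0.00694 and 0.00795 in DCBQ. The ratio was therefore 6.23-fold lower in DCBQ, with no overlap (exact two-sided permutation test, p = 0.1, the smallest that 20 labellings can give; adjusted p = 0.117 over 7 ratios). In TPM, the heavy chain was in excess of the light chain in both groups, and more so after DCBQ.

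CHAC1, the gamma-glutamylcyclotransferase that cleaves glutathione, had 75.1, 65.7 and 68.7 TPM in control and 1.84, 2.66 and 1.82 TPM in DCBQ. No DCBQ library came near the lowest control library. CHAC1 fell 33.2-fold, from 69.8 ± 4.8 to 2.11 ± 0.48 TPM (log2 difference -4.52 with SE 0.12, limma adjusted p = 1.3e-07), the 2nd largest decrease of all tested genes on that scale. It went from the 84.6th to the 17.6th percentile of level. The gene is on chromosome 15, 40952962 to 40956519, plus strand, and the ATF4 element printed above begins 210 bases before the RefSeq start.

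GGCT, a cyclotransferase of another family that acts on gamma-glutamyl dipeptides, did not pass the test as deposited (140.0 ± 3.8 TPM in control, 131.2 ± 3.0 in DCBQ, limma adjusted p = 0.10). Its difference of -0.09 turned positive under median-of-ratios scaling, quantile normalization and without mitochondrially encoded genes. The lowest limma adjusted p over the alternatives, 0.043, fell among these positive differences, the largest of which was 0.15 with median-of-ratios scaling. GGCT was called higher in the setting with that p, and no call is claimed for the others. The ratio of CHAC1 to GGCT was 0.544, 0.477 and 0.476 in control and 0.0140, 0.0207 and 0.0136 in DCBQ, 31.5-fold lower (exact permutation p = 0.1, adjusted p = 0.117 over the 7 ratios). Every DCBQ ratio was far below every control ratio.

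By the mean absolute distance over the 6 libraries of log2(TPM + 1), taken from each gene's control mean, the called gene closest to SLC7A11 was PSAT1 (distance 0.053, log2 difference -3.49). ANKRD1 (0.11) and KIF1A (0.18) came next. The gene closest to CHAC1 was ASNS (distance 0.15, log2 difference -4.60), followed by ADM2 (0.28) and HSPA6 (0.29). These distances describe 6 libraries in 2 groups and rest mainly on the size of the decrease.

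**Figure D2:**
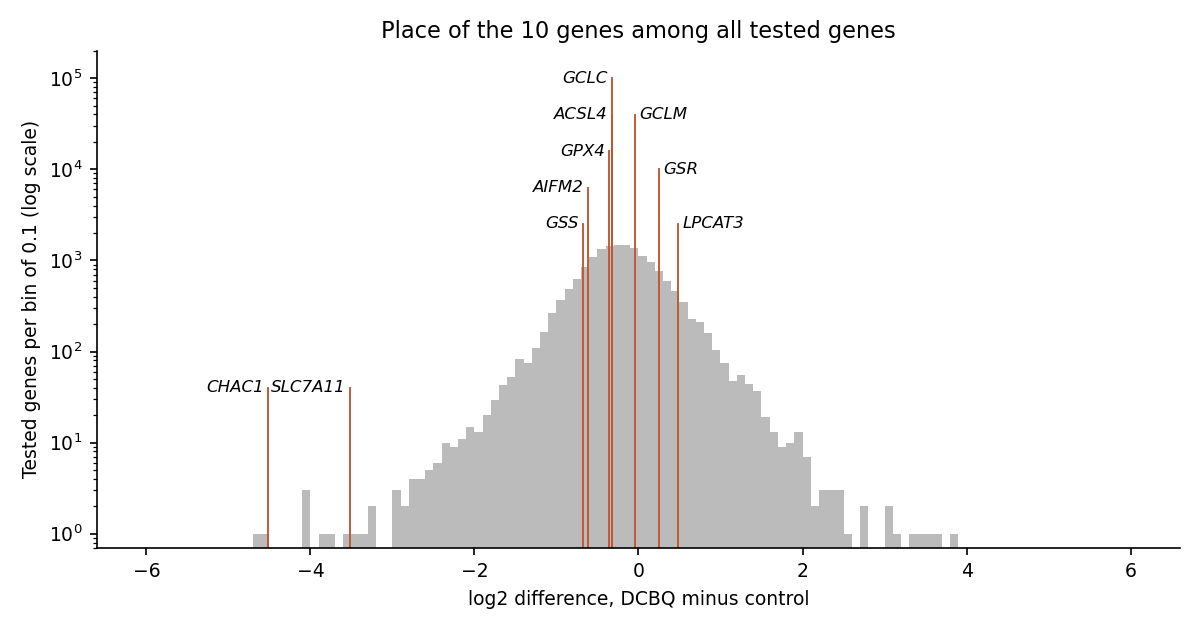
Log2 difference, DCBQ minus control, of all 16734 tested genes (grey bars, number of genes per bin of 0.1, log axis), with an orange line at each of the 10 genes; line heights only separate the names. CHAC1 and SLC7A11 lie in the far left tail at -4.52 and -3.52, and the other 8 lie between -0.68 and 0.48.

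The enzymes that build glutathione did not follow SLC7A11 to the same extent. GCLC, the catalytic subunit of the first and rate-limiting step, had 17.8, 18.5 and 19.4 TPM in control and 13.5, 14.5 and 15.8 TPM in DCBQ. The highest DCBQ library stayed below the lowest control library. GCLC fell 1.27-fold as deposited, from 18.5 ± 0.78 to 14.6 ± 1.1 TPM (log2 difference -0.32 with SE 0.084, limma adjusted p = 0.012). The call ended under median-of-ratios scaling (-0.09, adjusted p = 0.35), quantile normalization (-0.04, adjusted p = 0.69) and without mitochondrially encoded genes (-0.20, adjusted p = 0.078). GCLC sat 0.11 below the median tested gene.

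GCLM, the modifier subunit that raises the ligase's activity, had 24.1, 27.97 and 25.1 TPM in control and 24.1, 25.8 and 24.9 TPM in DCBQ. Of the DCBQ libraries, 2 lay within the control range and 1 just below it. The difference was -0.04 (95% confidence interval -0.22 to 0.13, limma adjusted p = 0.66). Median-of-ratios scaling gave 0.19 (adjusted p = 0.057), against 0.24 under quantile normalization (adjusted p = 0.027), where GCLM was called higher. Its sign also turned, to 0.016, when control replicate 2 was left out of TPM as deposited.

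The ratio of GCLM to GCLC, taken on TPM as deposited, was 1.36, 1.52 and 1.30 in control and 1.78, 1.77 and 1.58 in DCBQ. All DCBQ ratios were above all control ratios, by 1.23-fold on average (exact permutation p = 0.1, adjusted p = 0.117 over the 7 ratios). The highest control ratio, 1.52, was close to the lowest DCBQ ratio, 1.58. In these libraries the ratio leaned towards the modifier, by a small step.

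GSS, which adds glycine to complete glutathione, had 147.8, 133.6 and 145.2 TPM in control and 92.3, 85.6 and 87.6 TPM in DCBQ. It was the most abundant of the synthesis genes in both groups, and the groups were far apart. GSS fell 1.61-fold, from 142.2 ± 7.5 to 88.5 ± 3.5 TPM (log2 difference -0.68 with SE 0.055, limma adjusted p = 3.1e-05), and its difference was -0.44 under median-of-ratios scaling (adjusted p = 0.0010). A decrease of this size was not rare: GSS was at the 15.5th percentile of all tested differences.

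GSR, which regenerates reduced glutathione, went the other way. It had 43.7, 44.5 and 44.2 TPM in control and 50.4, 51.8 and 56.3 TPM in DCBQ, with the lowest DCBQ library above every control library. GSR rose 1.20-fold, from 44.1 ± 0.37 to 52.8 ± 3.0 TPM (log2 difference 0.25 with SE 0.058, limma adjusted p = 0.0067), and by 0.49 under median-of-ratios scaling (adjusted p = 0.000215).

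The ratio of GSS to GSR was 3.38, 3.01 and 3.28 in control and 1.83, 1.65 and 1.56 in DCBQ. The ratio was 1.92-fold lower in DCBQ without overlap (exact permutation p = 0.1, adjusted p = 0.117 over the 7 ratios). For this pair, the balance moved towards the recycling enzyme in all 3 DCBQ libraries. GCLC and GCLM, of the earlier step in synthesis, were not set against GSR.

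**Figure D3:**
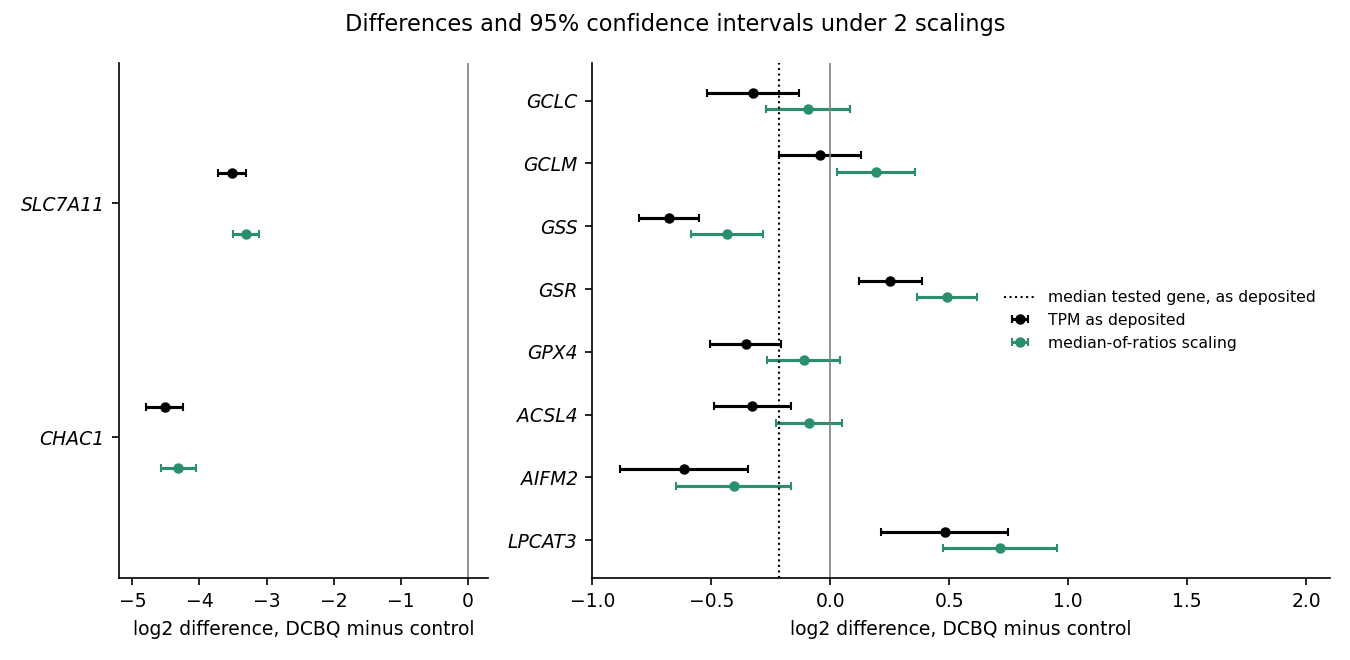
Log2 difference, DCBQ minus control, of the 10 genes (points) with 95% confidence intervals (bars), on TPM as deposited (black) and after median-of-ratios scaling (green); the panels have different horizontal axes, and the dotted line is the median tested gene as deposited (-0.21). Black intervals of GCLC, GPX4 and ACSL4 lie below 0 and their green intervals span 0, while SLC7A11, CHAC1, GSS, AIFM2, GSR and LPCAT3 stay on their side of 0. The black interval of GCLM spans 0 and its green interval lies above 0.

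Of the defences against lipid peroxidation, GPX4, the selenoenzyme that reduces phospholipid hydroperoxides, was the most abundant of the 10 genes. It had 250.3, 262.4 and 280.5 TPM in control and 203.5, 223.1 and 193.2 TPM in DCBQ. The groups were separate, and GPX4 stayed within the top few percent of genes by level, at the 97.5th percentile in control and the 96.6th in DCBQ. GPX4 fell 1.28-fold, from 264.4 ± 15.2 to 206.6 ± 15.2 TPM (log2 difference -0.36 with SE 0.064, limma adjusted p = 0.0021), and the call ended under median-of-ratios scaling (-0.11, adjusted p = 0.20) but not under quantile normalization (-0.31, adjusted p = 0.0081).

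AIFM2, the oxidoreductase that acts beside GPX4 through coenzyme Q, had 7.84, 7.62 and 7.99 TPM in control and 4.15, 5.01 and 5.16 TPM in DCBQ. It was the lowest of the 10 in control, and DCBQ brought it lower in each library. AIFM2 fell 1.64-fold, from 7.82 ± 0.19 to 4.77 ± 0.55 TPM (log2 difference -0.62 with SE 0.12, limma adjusted p = 0.0026), and the difference was -0.41 with median-of-ratios scaling (adjusted p = 0.014). The histone variant gene MACROH2A2 overlaps AIFM2 for 14058 bases on the opposite strand and is more abundant. It had 49.6 ± 4.6 TPM in control and 37.6 ± 3.5 in DCBQ, so a share of the AIFM2 signal could come from it if strand was not used, which was not tested.

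The ratio of AIFM2 to GPX4 was 0.0313, 0.0290 and 0.0285 in control and 0.0204, 0.0225 and 0.0267 in DCBQ. The groups did not overlap, although the highest DCBQ ratio came close to the lowest control ratio, and the ratio was 1.28-fold lower (exact permutation p = 0.1, adjusted p = 0.117 over the 7 ratios). AIFM2 and GPX4 were thus both lower as deposited, AIFM2 by the larger step.

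The lipid-loading enzymes split. ACSL4, which activates arachidonic and adrenic acid, had 44.3, 47.0 and 41.9 TPM in control and 32.8, 37.4 and 35.4 TPM in DCBQ, with no overlap. ACSL4 fell 1.26-fold as deposited, from 44.4 ± 2.5 to 35.2 ± 2.3 TPM (log2 difference -0.33 with SE 0.071, limma adjusted p = 0.0050). The call ended under median-of-ratios scaling (-0.09, adjusted p = 0.26), quantile normalization (-0.09, adjusted p = 0.27) and without mitochondrially encoded genes (-0.20, adjusted p = 0.053).

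Beside it, ACSL3, which favours monounsaturated fatty acids, had 91.2 ± 11.4 TPM in control and 80.4 ± 6.5 in DCBQ and did not pass the test (-0.18, limma adjusted p = 0.15), and its difference was 0.07 with median-of-ratios scaling. The ratio of ACSL4 to ACSL3 ran from 0.426 to 0.534 in control and from 0.377 to 0.477 in DCBQ. These ranges overlap, and this was the only one of the 7 ratios whose groups did (exact permutation p = 0.4).

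LPCAT3, the acyltransferase that inserts polyunsaturated chains into lysophospholipids, had 14.8, 16.7 and 16.8 TPM in control and 19.1, 24.4 and 25.6 TPM in DCBQ. DCBQ replicate 1 lay well below the other DCBQ libraries but above every control library. LPCAT3 rose 1.43-fold, from 16.1 ± 1.1 to 23.1 ± 3.5 TPM (log2 difference 0.48 with SE 0.12, limma adjusted p = 0.0085), and by 0.71 under median-of-ratios scaling (adjusted p = 0.00088). It was the largest increase among the 10. EMG1 overlaps it for 21243 bases on the opposite strand and had 21.9 ± 4.6 TPM in control and 18.9 ± 0.76 in DCBQ.

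The ratio of LPCAT3 to ACSL4 was 0.335, 0.356 and 0.402 in control and 0.583, 0.654 and 0.724 in DCBQ. It was 1.79-fold higher in DCBQ (exact permutation p = 0.1, adjusted p = 0.117 over the 7 ratios). The enzymes of neighbouring steps in loading polyunsaturated chains therefore moved apart in every DCBQ library.

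**Figure D4:**
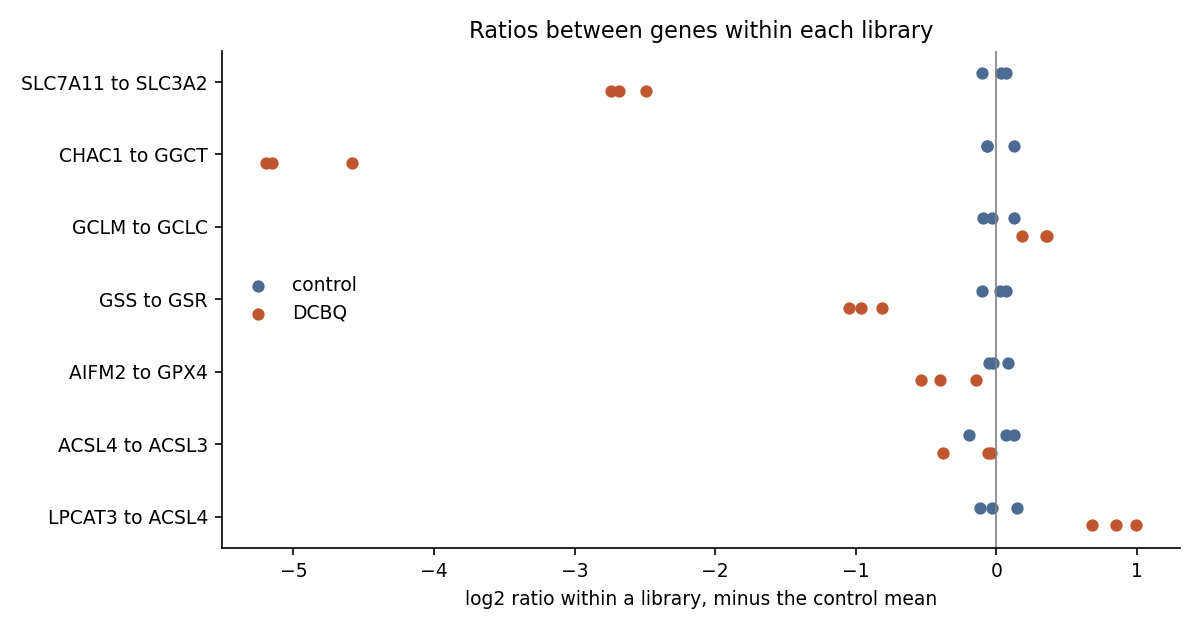
Ratios of TPM between a pair of genes within each library, as log2 and minus the mean of the control libraries (horizontal axis); blue points are control libraries and orange points DCBQ libraries. The groups are separate for 6 ratios, most widely for CHAC1 to GGCT and SLC7A11 to SLC3A2, and overlap for ACSL4 to ACSL3.

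In control, the 10 genes ranked by mean TPM as GPX4, GSS, CHAC1, ACSL4, GSR, SLC7A11, GCLM, GCLC, LPCAT3 and AIFM2. ACSL4 and GSR were the only neighbours whose replicate ranges overlapped. In DCBQ the order was GPX4, GSS, GSR, ACSL4, GCLM, LPCAT3, GCLC, AIFM2, SLC7A11 and CHAC1, and the ranges overlapped for GCLM with LPCAT3 and for SLC7A11 with CHAC1. CHAC1 thus went from the 3rd to the last place and SLC7A11 from the 6th to the 9th. Summed over the 10, the level was 664.3 to 687.7 TPM in control and 444.2 to 472.7 TPM in DCBQ. In bulk RNA, fewer cells with a transcript and less of it in each cell cannot be told apart.

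Other genes of these pathways were counted from 7 lists. Of 21 tested genes of cystine and cysteine supply and glutathione turnover outside the members, 4 were higher and 10 lower (median -0.37, against -0.21 over all tested genes), or 6 higher and 7 lower with median-of-ratios scaling. SLC1A5, a glutamine carrier, fell 5.88-fold from 381.9 ± 16.5 to 64.9 ± 4.4 TPM, and SLC1A4, a related carrier of alanine, serine and cysteine, 7.37-fold from 65.3 ± 3.9 to 8.86 ± 0.99 TPM (limma adjusted p = 8.0e-08 and 3.3e-07). CTH, which releases cysteine from cystathionine in the transsulfuration route, fell 3.398-fold, from 73.1 ± 4.6 to 21.5 ± 2.9 TPM (limma adjusted p = 5.9e-06). Transcripts for cystine import and for making cysteine inside the cell were thus lower in the same libraries.

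GSR consumes NADPH, and a list of 19 tested genes held enzymes that make NADPH and neighbouring steps that do not make it themselves. Of these, 4 were higher and 10 lower (median -0.23), which became 7 higher and 6 lower with median-of-ratios scaling. The counts therefore do not describe NADPH-making enzymes alone. IDH1, which makes NADPH in the cytosol, rose 2.60-fold to 108.9 ± 4.9 TPM. The folate enzyme genes MTHFD2 and MTHFD1L fell 6.25-fold and 2.34-fold, and PGLS, of the pentose phosphate route, fell 1.76-fold from 288.3 ± 9.7 TPM. MTHFD1L and PGLS are among the neighbouring steps.

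The list of 29 tested genes of lipid remodelling and oxidation had 5 higher, 7 lower and 17 that did not pass (median -0.10), or 11 higher and 5 lower with median-of-ratios scaling. SAT1, a polyamine acetyltransferase linked to lipid peroxidation, rose 3.31-fold from 64.2 ± 2.4 to 212.3 ± 11.2 TPM, and ACSL5, another acyl-CoA synthetase, 2.99-fold to 34.3 ± 2.8 TPM. The desaturase genes SCD, which makes monounsaturated chains, and FADS1, which makes polyunsaturated ones, fell 1.76-fold and 1.69-fold.

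Of 28 tested genes for coenzyme Q, tetrahydrobiopterin, vitamin K, membrane repair and thioredoxin-linked defence, 7 were higher and 8 lower (median -0.08), or 9 higher and 4 lower with median-of-ratios scaling. PDSS2, which makes the side chain of coenzyme Q, rose 1.93-fold to 19.8 ± 1.0 TPM. In the same list the thioredoxin reductase gene TXNRD1 fell 2.79-fold and the peroxidase gene PRDX1 rose 2.99-fold.

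In a list of genes for selenium supply and selenocysteine insertion, which GPX4 depends on, and of related genes such as the selenoprotein SELENOF, 1 was higher and 10 lower of 16 (median -0.45), or 1 higher and 6 lower with median-of-ratios scaling. SECISBP2, which binds the selenocysteine insertion element, fell 1.53-fold from 69.4 ± 2.8 to 45.4 ± 2.1 TPM (limma adjusted p = 7.8e-05). SEPHS1, a paralog of the selenophosphate synthetase, fell 1.43-fold. The synthetase gene itself, SEPHS2, was the 1 called higher, from 47.9 ± 1.5 to 56.7 ± 1.6 TPM (log2 difference 0.24, limma adjusted p = 0.0058). SARS1, which charges the tRNA with serine and serves all serine codons too, fell 3.36-fold, and PRDX6 fell 1.35-fold.

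Of 16 transcription factors and regulators known to act on the family, 1 (JUN) was higher and 12 lower (median -0.59), or 2 higher and 10 lower with median-of-ratios scaling. ATF4, which activates SLC7A11 and CHAC1 and whose element is printed above for CHAC1, fell 3.39-fold from 786.3 ± 91.9 to 232.2 ± 3.6 TPM (log2 difference -1.75, limma adjusted p = 1.3e-06). Its partners of the C/EBP family fell too, CEBPG 6.014-fold to 13.6 ± 0.91 TPM, CEBPB 3.33-fold to 26.4 ± 2.6 TPM and DDIT3 8.27-fold to 6.48 ± 0.81 TPM. Whether these factors had a part in the decreases of SLC7A11 and CHAC1 was not tested.

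NFE2L2, which encodes NRF2, the factor of the antioxidant response element, fell 1.67-fold from 151.5 ± 2.9 to 90.5 ± 5.9 TPM (log2 difference -0.74, limma adjusted p = 2.1e-05). The 2 members with a printed antioxidant response element differed from each other: AIFM2 fell and GCLM did not pass the test as deposited. The part of NFE2L2 in this was not tested.

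The 10 tested marker and iron genes linked to ferroptosis had 2 higher and 5 lower (median -0.23), or 3 higher and 5 lower with median-of-ratios scaling. TRIB3, a stress pseudokinase, fell 14.9-fold, HMOX1, the inducible haem oxygenase, 5.70-fold and the ferritin light chain FTL 1.66-fold, while TFRC, the transferrin receptor, rose 1.83-fold from 71.7 ± 2.9 to 130.9 ± 7.9 TPM.

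The cells carried the epithelial markers of their label, except TP63, a basal factor, which was at most 0.148 TPM. Summed over 8 markers the level was 4312 to 4499 TPM in control and 5918 to 6240 TPM in DCBQ, with 4 of 7 tested markers higher (KRT5, KRT8, KRT18 and KRT19) and KRT7 lower. Of 8 fibroblast markers, COL1A2, COL3A1, DCN and LUM were listed at 0 in every library and 1 passed the filter, COL1A1, which rose from 6.73 ± 0.55 to 15.1 ± 1.1 TPM. The fibroblast sum was 6.93 to 8.17 TPM in control and 14.9 to 16.7 TPM in DCBQ. Of 7 blood and endothelial markers 3 were at 0 throughout, and the sum was 0.90 to 1.341 TPM in control and 2.05 to 2.52 TPM in DCBQ, mainly from CD14. The part of these markers in the changes of the 10 genes was not tested.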

How the data were processed

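The authors deposited 1 table of TPM for 6 poly(A)-selected RNA-seq libraries, in which every library sums to 1000000. Depth cannot be read from such values, so counting intervals and floors are left out. Reads were handled on hg38 with Trimmomatic, HISAT2 and StringTie among the tools, per the submitters' processing notes. Which annotation was used, whether strand was kept and what tool made the TPM is not given in the sources used here. Gene coordinates are those of GENCODE 29, and symbols were looked up by Ensembl identifier, 42013 of them in a names table and 844 in GENCODE 29.

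Genes with a mean of at least 1 TPM entered limma 3.58.1 as log2(TPM + 1) (eBayes with a variance trend, group as the only term) in R 4.3.3, with two-sided p-values adjusted by Benjamini-Hochberg over the 16734 genes. Every gene-level adjusted p printed is limma's. The pseudocount of 1 understates the change of low genes, and fold values are ratios of mean TPM without it. Simulated data were made from these 16734 genes with 200 of them changed. There the test recovered 95.5% of changes of 2, 74.6% of changes of 1 and 48.5% of changes of 0.5 on the log2 scale, with 11 false among 157 calls. Far fewer genes were changed there than were called in the real data, so these rates do not carry over to it.

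The members, lists and ratios were chosen with earlier results of these data known. Named were the 10 members, the ratio partners, ATF4, NFE2L2, from each list the 4 genes of lowest p and the 3 called genes closest to SLC7A11 and to CHAC1, except 1 list gene that is not reported here. Outside that rule lie SLC7A11-AS1, MACROH2A2, EMG1, KRT7, SELENOF, SEPHS2, JUN, TP63, the fibroblast markers at 0 and the genes under other observations. All of these were chosen after their values were seen. Alternatives covered the pseudocount, the filter, the scaling, the variance model, a block for the replicate number, and leaving out single libraries.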

Additional observations from a re-analysis of the deposited data

How the results depend on the processing

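Under 15 alternatives, 6 of the 10 members (SLC7A11, CHAC1, GSS, GSR, AIFM2, LPCAT3) kept their direction and call, and leaving out any 1 library ended no member's call. Median-of-ratios scaling and quantile normalization gave 3995 and 3814 higher and 3861 and 3966 lower genes, against 2247 and 6610 as deposited, and 4 (median-of-ratios) against 7 lower members. The log2 difference of GCLM turned positive under median-of-ratios (0.19), quantile normalization (0.24), without mitochondrially encoded genes (0.086) and without control replicate 2 (0.0158, with a range of -0.0863 to 0.0158 over single libraries left out). The log2 difference of GGCT turned positive under the same 3 scalings (0.15, 0.00934 and 0.039), and ACSL3 did so under median-of-ratios (0.066). EMG1 turned positive under median-of-ratios and quantile normalization (0.050 and 0.092), although without control replicate 1 it was called lower (-0.352, adjusted p = 0.0166). ABCC1, at 0.27 as deposited, turned negative without DCBQ replicate 2 (-0.428), and its values ranged up to 0.647 over the alternatives. KRT18 lost its call without the variance trend (adjusted p = 0.054), and MACROH2A2 under median-of-ratios and quantile normalization (adjusted p = 0.27 and 0.21). The cause was not tested.

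Genes of the NADPH list called lower went from 10 to 6 under median-of-ratios, 5 under quantile normalization and 6 without mitochondrially encoded genes. Lipid genes went from 5 to 11 and 10 higher, and to 4 lower under quantile normalization. Coenzyme Q and related genes went from 8 to 4 lower under all 3 scalings, and to 5 without control replicate 3. Selenocysteine genes went to 2 higher under quantile normalization. The ferroptosis-linked list had 1 higher, not 2, under no filter, without the trend, and without control replicate 1, control replicate 3, DCBQ replicate 2 or DCBQ replicate 3.

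Whether the replicate numbers pair the libraries could not be settled with 3 libraries per group. Correlations of deviations were small, at -0.037, 0.045 and 0.046 for same-numbered libraries. The values 0.045 and 0.046 were the highest of all pairs, while control replicate 1 was closer to DCBQ replicate 2 (0.028). With the replicate block 2156 genes were higher and 6344 lower, no member's call changed, and ACSL3 passed (-0.18, adjusted p = 0.032). Depth limits are unknown with TPM.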

Other observations

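Several genes next to these steps in glutathione use also moved, and were chosen here after their values were seen. GLRX, a glutaredoxin that reduces protein-glutathione disulfides, had 3.11, 1.98 and 2.56 TPM in control and 7.27, 7.05 and 8.29 TPM in DCBQ, a rise of 2.96-fold (log2 difference 1.28, limma adjusted p = 0.00024). GGT7, of the gamma-glutamyltransferase family, fell 2.37-fold from 30.8 ± 1.3 to 12.97 ± 1.0 TPM, and DHODH, which reduces coenzyme Q in mitochondria, fell 1.72-fold from 9.67 ± 1.151 to 5.64 ± 0.44 TPM.

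Single libraries stood apart for a pair of genes. ABCC1, which exports glutathione conjugates, had 3.03, 1.98 and 2.85 TPM in control and 1.79, 10.3 and 1.55 TPM in DCBQ, and did not pass the test (limma adjusted p = 0.69). CBS, of the transsulfuration route, had 13.6, 9.003 and 10.1 TPM in control and 1.29, 7.17 and 3.17 TPM in DCBQ (log2 difference -1.46, limma adjusted p = 0.016), a call lost without control replicate 1 (adjusted p = 0.056) and with no filter on low values (adjusted p = 0.073).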
